A study of Streblospio benedicti with 24 samples.

Results

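LP oocytes, the unfertilised eggs of F1 females of the marine annelid Streblospio benedicti with an LL mother and a PP father, were compared with LL oocytes, so that both groups had an LL maternal line and differed in the paternal one. The members were chosen by genotype: 5 LP libraries (LP1 to LP5, laboratory crosses) and 7 LL libraries (LL1 to LL7, the lecithotrophic morph from Long Beach, CA), which is 12 of the 24 libraries. The other 12 libraries were 5 of the reciprocal F1 cross, PL (PP mother, LL father), and 7 of PP, the planktotrophic morph from Bayonne, NJ. Females were kept apart so that eggs stayed unfertilised, and each library was made from the pooled eggs of one female, so a replicate is a female. All 5 LP libraries carried the label of 2 technical replicates, and of the LL libraries only LL6 and LL7 carried it. The other labelled libraries were the 5 PL libraries and PP7, and the study's methods state that F1 samples were sequenced separately from the parental ones. Genotype and label therefore largely coincided here, and each gene called between LP and LL was also set against LL6 and LL7.

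An animal egg is loaded during oogenesis with maternal messenger RNA, which directs the first cleavages before the embryo's own genome is transcribed. In S. benedicti, planktotrophic females make small eggs that become feeding larvae, and lecithotrophic females make large, yolky eggs that develop without feeding. The egg transcripts of an F1 female come from her own diploid genome and carry both morphs' alleles, whereas those of an LL female carry L alleles alone. A clutch of eggs gives relative abundance only, and fewer cells of a type and less RNA per cell could not be told apart. Markers of oocytes and of other tissues were not analysed here, since the files list identifiers without gene names. The genes named below are therefore those that the study's text or the description of the series names, and a few others given by identifier alone.

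LP libraries held 12600190 to 23165841 counts on genes and LL libraries 10591254 to 29426670. Between 10442 and 14294 genes had at least 1 count in LP libraries, 13597 to 13790 in LL6 and LL7, and 10198 to 11606 in LL1 to LL5. Reads that did not align made up 21.8 to 37.8% of the tallied reads in LP, 25.1 to 27.2% in LL6 and LL7, and 36.3 to 54.7% in LL1 to LL5. The reference genome was that of the planktotrophic morph, and the part of this in any difference between LP and LL was not tested.

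In a principal component analysis of the 500 most variable genes, the first component held 42.7% of the variance and set the 5 LP libraries together with LL6 and LL7 on one side and LL1 to LL5 on the other. The LP libraries lay between 5.05 and 26.9 on it, LL6 and LL7 at 16.9 and 22.5, and LL1 to LL5 between -30.1 and -21.6. The second component, 16.6% of the variance, spread the LP libraries among themselves, with LP1 at 33.0 and LP2 at 23.1 at one end and LP5 at -13.4 and LP4 at -18.7 at the other. Across genes, LP1 and LP2 deviated from the LP mean together (correlation 0.35), as did LP4 and LP5 (0.15). In the other 8 pairs the correlation lay between -0.62 and -0.05. Deviations from the mean of the same 5 libraries sum to 0, so negative correlations arise even among unrelated libraries. Over 6399 genes with a mean above 100 normalised counts, the median standard deviation of log2(normalised count + 1) was 0.54 among LP, against 0.44 among LL1 to LL5 and 0.49 among all 7 LL libraries.

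**Figure D1:**
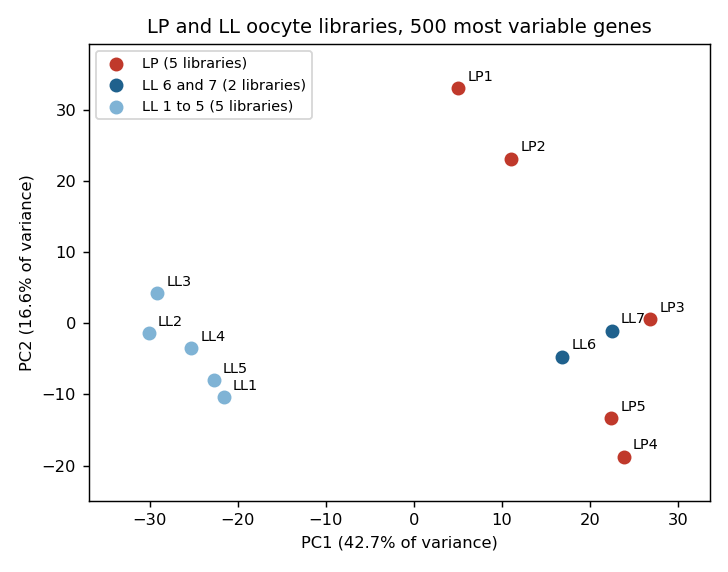
Principal components of variance-stabilised counts of the 500 most variable genes in 12 libraries, with percent of variance on each axis and a point for each library. LP1 to LP5, LL6 and LL7 lie at positive values of PC1 and LL1 to LL5 at -30.1 to -21.6, and LP1 and LP2 lie apart from LP4 and LP5 on PC2.

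Of 10782 genes tested between LP and LL oocytes, 125 were called (1.16% of those tested), meaning an adjusted p under 0.1 from edgeR's quasi-likelihood test with Benjamini-Hochberg adjustment and a fold change over 1.5. In LP oocytes 72 genes were higher (0.668% of those tested) and 53 were lower (0.492%), and 1324 genes (12.3%) had an unadjusted p under 0.05. The fitted log2 fold change had a median of 2.03 over the 72 higher genes and -4.41 over the 53 lower ones, beside -0.01 over all genes tested. With genes that had no count in a whole group set at their bound, these medians were 1.99 and -3.89.

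The number of called genes rested on the libraries included. Leaving out 1 library gave 64 called genes without LP1, 54 without LP2, 37 without LP3 and 53 without LP5, and 46 without LL1, 52 without LL2, 56 without LL3, 73 without LL4, 57 without LL5 and 196 without LL7. With the label as a covariate, 5 genes were called (0.0464%; 878 had an unadjusted p under 0.05), and all 5 were among the 125. DESeq2 with the same covariate, a fit chosen after the data were seen, called 194 genes (0.996%), 97 in each direction. With DESeq2's Wald test and no covariate, 510 of 19539 genes were called (2.61%), 229 higher and 281 lower in LP, and they held 124 of the 125.

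The called genes covered a wide range of abundance. Among the 72 higher genes the median of the LP mean was 376 normalised counts, and 14 genes averaged under 100, 33 from 100 to 1000, and 25 at least 1000, with 7091 as the highest mean. Among the 53 lower genes the median of the LL mean was 477 normalised counts, with 13 genes under 100, 20 from 100 to 1000 and 20 at least 1000. The highest LL mean there, 38019, was that of Sbene_G10774, which had no count in any labelled library. Of the 72 higher genes, 2 had no count in any LL library (2.78%), beside 7 of the 10782 tested (0.0649%). Of the 53 lower genes, 14 had none in any LP library (26.4%), beside 26 of the 10782 tested (0.241%). No labelled library, LL6 and LL7 included, had a count in 11 of those 14. In these 11 the absence followed the label within the LL genotype, and LP did not differ from LL6 and LL7.

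In 54 of the 125 called genes the 5 LP and the 7 LL libraries did not overlap, 34 with every LP library higher and 20 with every LP library lower. Over all genes tested, 170 (1.58%) showed no overlap, 97 of them higher in LP (0.900%) and 73 lower (0.677%). The LP libraries took part unevenly in the 72 higher genes, where 63 lay above every LL library in LP1, 62 in LP2, 59 in LP3, 51 in LP4 and 59 in LP5. In 21 of these 72 genes no more than 3 LP libraries exceeded every LL library. Among the 53 lower genes, between 26 (LP4) and 30 (LP5) lay below every LL library in a given LP library, and in 19 genes no LP library did. Those 19 include the 14 genes with no count in any LP library. Each of these 14 also had an LL library with no count, below which no library can lie.

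LL6 and LL7 share the label with LP but are also part of the LL mean against which the 125 genes were called, so their place in these genes is partly fixed by the selection and is given as a description. In 70 of the 125 (56%), 43 higher and 27 lower in LP, every LP library lay beyond both LL6 and LL7 in the direction of the fold change, beside 11.2% of all genes tested. In 30 called genes, 13 higher and 17 lower in LP, both LL6 and LL7 lay inside the range of the LP libraries, beside 54.6% of all genes tested. The remaining 25 called genes had neither arrangement. Among the 53 genes called lower in LP, LL6 and LL7 were both below LL1 to LL5 in 23. Of the 53, 18 were also called lower in LL6 and LL7 than in LL1 to LL5, beside 32 of all 13501 genes tested there. Among the 72 called higher, both were above LL1 to LL5 in 16. Of the 72, 3 were also called higher in LL6 and LL7, beside 196 of the 13501 (1.45%). How many of all genes had LL6 and LL7 both below or both above LL1 to LL5 was not counted.

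Within the labelled libraries, LP was tested against LL6 and LL7 alone, with PL and PP7 lending their spread. Of 12716 genes, 15 were called (0.118%), 4 higher and 11 lower in LP, and 1022 had an unadjusted p under 0.05. DESeq2's Wald test on the same libraries called 247 of 18856 genes (1.31%), 112 of them lower in LP. Leaving out LP1, LP2 or LL7 gave 9 called genes, leaving out LP3 or LL6 gave 8, and there were 12 without LP4 and 13 without LP5. Of the 125 genes called against all 7 LL libraries, 5 were called here, and 1 of those 5 was among the 54 genes without overlap. In this comparison 113 of the 125 could be tested, counting 72 higher and 41 lower genes, and 109 kept the sign of their fold change while 4 had the opposite sign. The change exceeded 1.5-fold in the same direction in 64 of the higher and 33 of the lower genes. The median log2 fold change was 1.53 over the higher genes and -1.38 over the lower ones, beside 0.03 over all genes tested. These values share the LP libraries, LL6 and LL7 with the selection of the 125 genes, so they describe those genes and are no test of them. In 8 of the 15 genes called within the label, all LP libraries lay inside the range of LL1 to LL5.

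**Figure D2:**
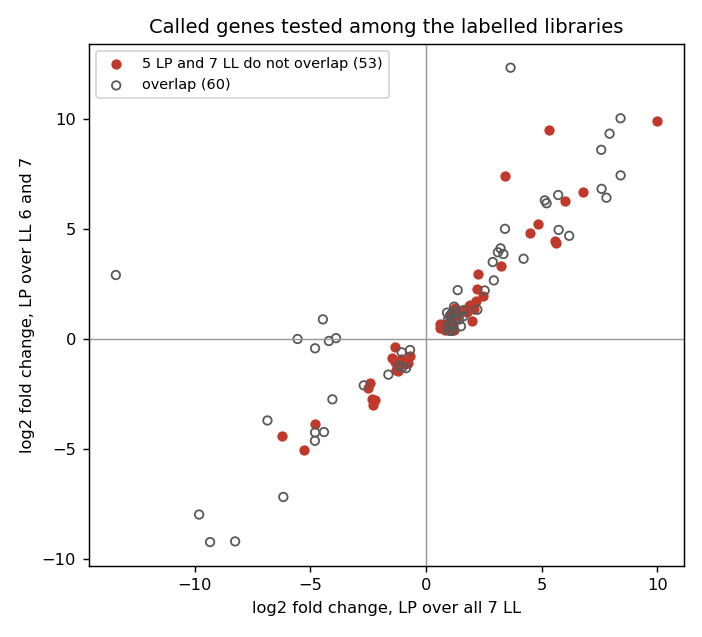
The log2 fold change of LP over all 7 LL libraries (x axis) and of LP over LL6 and LL7 among labelled libraries (y axis), 1 point for each called gene tested in both, filled where the 5 LP and 7 LL libraries do not overlap. Of 113 genes, 109 have the same sign on both axes and 4 do not.

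LL libraries of 1 genotype also differed with the label. LL6 and LL7 had 228 called genes against LL1 to LL5 (1.69% of 13501 tested), 196 higher (1.45%) and 32 lower. The split turned with the libraries fitted and with the tool, at 123 higher and 157 lower with only the 7 LL libraries (2.57% of 10887 called) and 279 higher and 240 lower with DESeq2 (2.66% of 19518). Leaving out LL6 gave 125 called genes and leaving out LL7 gave 107. LP against LL1 to LL5 had 681 called genes (5.04%), 515 higher and 166 lower in LP. These comparisons share libraries and differ in the number of libraries, so the counts stand side by side without a test between them, and genotype and label cannot be told apart in LP against LL1 to LL5.

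**Figure D3:**
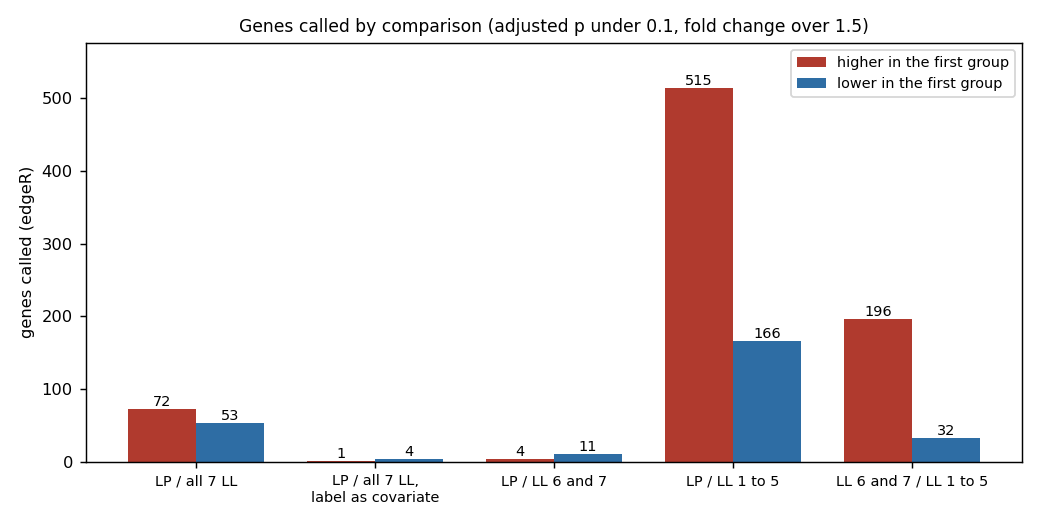
Genes called by edgeR in each comparison, with bars for genes higher (left bar) and lower (right bar) in the first-named group, on an axis from 0. LP had 72 higher and 53 lower genes against all 7 LL libraries, 4 and 11 against LL6 and LL7, and 515 and 166 against LL1 to LL5, and LL6 and LL7 had 196 and 32 against LL1 to LL5.

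Among called genes without overlap, the largest fitted log2 fold change was that of Sbene_G21619. A fit over a group with no count depends on the prior count, so this order is not one of measured size. It had 73.2, 107, 241, 59.9 and 88.2 normalised counts in LP1 to LP5, and no count in any of the 7 LL libraries, LL6 and LL7 included. LP3 stood highest and every LP library was above every LL library. The LP mean of 114 ± 73.1 (SD, n = 5) was at least 37.0-fold higher than the LL floor of 3 counts per library (adjusted p = 0.0268 from edgeR). Against LL6 and LL7 alone the adjusted p was 0.299 (edgeR). Of the PL libraries, PL2, PL4 and PL5 had no count, PL1 had 21.0 normalised counts and PL3 2.12, and PP libraries ranged over 0, 0.888 and 41.2 (lowest, median and highest). The gene with the second largest fitted value was also at no count in all 7 LL libraries and had between 9.27 and 15.8 normalised counts in LP, at least 4.04-fold higher than the LL floor (adjusted p = 0.0521 from edgeR; 0.102 without LP3).

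A further gene, described here after its values were seen, had the highest ratio of means among the genes called higher without overlap whose LL mean was above that floor. It had 345, 685, 1236, 328 and 263 normalised counts in LP1 to LP5, and 0.943, 9.66 and 17.1 (lowest, median and highest) in LL, with LL6 at the median and LL7 below it. LP3 again stood highest, and the lowest LP library was far above the highest LL one. The LP mean of 571 ± 406 was 64.4-fold that of 8.87 ± 5.35 in LL (SD, n = 5 and 7). By edgeR the log2 fold change was 6.02 (SE 1.03, adjusted p = 0.0124), and 6.25 (adjusted p = 0.262) against LL6 and LL7 alone. PL libraries had 2.02 to 91.2 normalised counts and PP libraries 5.14 to 302.

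Of the 54 called genes without overlap, Sbene_G11336 was the 1 that was also called within the label, and it was singled out after its values were seen. LP libraries had 115, 127, 146, 161 and 154 normalised counts, and the LL libraries ranged over 0, 1.78 and 77.3 (lowest, median and highest), with 0.604 in LL6 and 0.833 in LL7. LL4, at 77.3, stood apart from the other 6 LL libraries, which had 6.67 or fewer, and it was still below LP1. Against all 7 LL libraries edgeR gave a log2 fold change of 3.40 (SE 0.80, adjusted p = 0.0578), and 7.40 (adjusted p = 0.00136 from edgeR) against LL6 and LL7. Without LL4 it was 5.66 (adjusted p = 1.114e-05 from edgeR), and the call was lost without LP3 (adjusted p = 0.105), LP5 (0.101), LL1 (0.103), LL3 (0.105) or LL5 (0.110). PL libraries had 173 to 686 normalised counts, and PP libraries 254, 491 and 854 (lowest, median and highest), so the LP values lay between those of LL and those of PL and PP.

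A legend of the study lists Sbene_G00916 as exclusive to PP among the morphs and as highly expressed in F1 eggs. The gene was called higher in LP, carried by part of the LP libraries. It had 1188, 2291, 4.22, 0 and 2479 normalised counts in LP1 to LP5, and 0, 2.41 and 18.9 (lowest, median and highest) in LL, with 2.41 in LL6 and 0.833 in LL7. LP1, LP2 and LP5 were far above every LL library, and LP3 and LP4 lay within the LL range. By edgeR the log2 fold change was 7.93 (SE 1.88, adjusted p = 0.0601), and 8.98 without LL4. The call was lost without LP2 (adjusted p = 0.104 from edgeR), without LP5 (0.109), without LL1 (0.103), without LL2 (0.125), without LL3 (0.105) and without LL5 (0.110). The PP libraries were as uneven, with a lowest value of 0.741, a median of 8.06 and a highest of 1846 normalised counts, and the 5 PL libraries had 0 to 4.95.

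The same legend lists Sbene_G25841 as exclusive to LL among the morphs and as highly expressed in F1 eggs. This gene had 112, 117, 217, 366 and 346 normalised counts in LP1 to LP5. LL libraries had 44.3, 160 and 502 (lowest, median and highest), with 160 in LL6 and 502 in LL7. All LP libraries lay within the LL range, and the log2 fold change of 0.28 (SE 0.64) did not pass the threshold (edgeR, adjusted p = 0.906) and changed sign with the label as a covariate (-0.18) and against LL6 and LL7 (-0.52). The 5 PL libraries had 77.2 to 287 normalised counts and the 7 PP libraries 0 to 3.85.

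The largest fitted fall among called genes without overlap was in Sbene_G22276. LP libraries had 0, 3.48, 0.845, 0 and 1.32 normalised counts, and LL libraries 7.5, 77.2 and 272 (lowest, median and highest), with 42.9 in LL6 and 7.5 in LL7. LL7 was the lowest LL library and LL4 the highest, and every LP library was below both. By edgeR the log2 fold change was -6.21 (SE 1.34, adjusted p = 0.0478) against all 7 LL libraries and -4.42 (adjusted p = 0.254) against LL6 and LL7 alone. It was -7.13 without LP2 and -5.61 without LL4, and without LP3 the adjusted p was 0.103. PL libraries had 22.8 to 85.6 normalised counts, and PP libraries 0.888, 2.49 and 75.8 (lowest, median and highest). The second largest fitted fall was in a gene of low abundance with 0 to 0.845 normalised counts in LP and 3.33 to 19.5 in LL (adjusted p = 0.0601 from edgeR). It lost its call without any 1 of the 5 LP libraries (adjusted p of 0.143 without LP1, 0.117 without LP2, 0.102 without LP3, 0.104 without LP4 and 0.139 without LP5, from edgeR) and without LL1 (0.1001), and its log2 fold change of -5.29 was -6.74 without LP3.

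Genes called in LP with LL6 and LL7 inside the LP range looked different. The largest fitted fall of this kind was in Sbene_G10774, an abundant transcript with no count in any LP library, and 0, 44662 and 76198 normalised counts (lowest, median and highest) in LL. LL6 and LL7 had no count, as in LP, and LL1 to LL5 had 40201 to 76198. PL libraries and PP7 had no count either, whereas PP1 to PP6 had 11785 to 59699. The gene was called lower in LP (adjusted p = 0.0503 from edgeR), a call lost without LP3 (0.102), and its presence followed the label in all 24 libraries. In all, 9 genes had no count in LP, LL6 and LL7 and over 50 normalised counts in each of LL1 to LL5. Of these 9, 8 were called lower in LP, and all 9 had no count in PL and PP7 as well. The largest fitted rise with LL6 and LL7 inside the LP range was in a gene with 83.9, 104 and 198 normalised counts in LP1, LP2 and LP3, against 0 in LP4, 1.32 in LP5 and at most 0.604 in LL (adjusted p = 0.0124 from edgeR), so its rise was carried by 3 of the 5 females. Its log2 fold change of 8.41 was 7.69 without LP3 and 9.42 without LL6. With the label as a covariate, or with LP1 to LP3 summed into one library, none of the called genes named or described one by one here kept its call (edgeR). With the covariate the fitted log2 fold change was 9.82 in Sbene_G21619, 6.93 in the gene with the second largest fitted rise and 6.03 in the gene with the 64.4-fold ratio. It was 4.05 in Sbene_G11336, 10.93 in Sbene_G00916 and 8.26 in the gene that rose in LP1 to LP3. It was -4.22 in Sbene_G22276 and -4.79 in the gene with the second largest fitted fall. Sbene_G10774 and the beta-Actin described next had no count in any labelled library. Their fitted values of -0.15 and -0.37 with the covariate are therefore no measured change.

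Of the reference genes in the description of the series, the beta-Actin followed the label. This beta-Actin (Sbene_G10277), the cytoskeletal protein of microfilaments, had no count in the 5 LP libraries, nor in LL6 and LL7, and 2333 to 4782 normalised counts in LL1 to LL5. It was called lower in LP (adjusted p = 0.0503 from edgeR; 0.103 without LP3), and was also at no count in PL and PP7. Glyceraldehyde-3-phosphate dehydrogenase (Sbene_G16356), an enzyme of glycolysis, averaged 71384 ± 8145 normalised counts in LP and 65765 ± 7433 in LL (SD, n = 5 and 7), which edgeR fitted as a log2 fold change of 0.12 (SE 0.16, adjusted p = 0.817). A beta-Tubulin (Sbene_G04390), a subunit of microtubules, averaged 18735 ± 7994 in LP and 24489 ± 8324 in LL, a log2 fold change of -0.37 by edgeR (SE 0.30, adjusted p = 0.646). LP4 and LP5, at 10815 and 9934 normalised counts of this beta-Tubulin, lay below the lowest LL library (13742). The other beta-Tubulin (Sbene_G09986) had no count in LP and at most 10.4 normalised counts in LL, and was not tested.

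**Figure D4:**
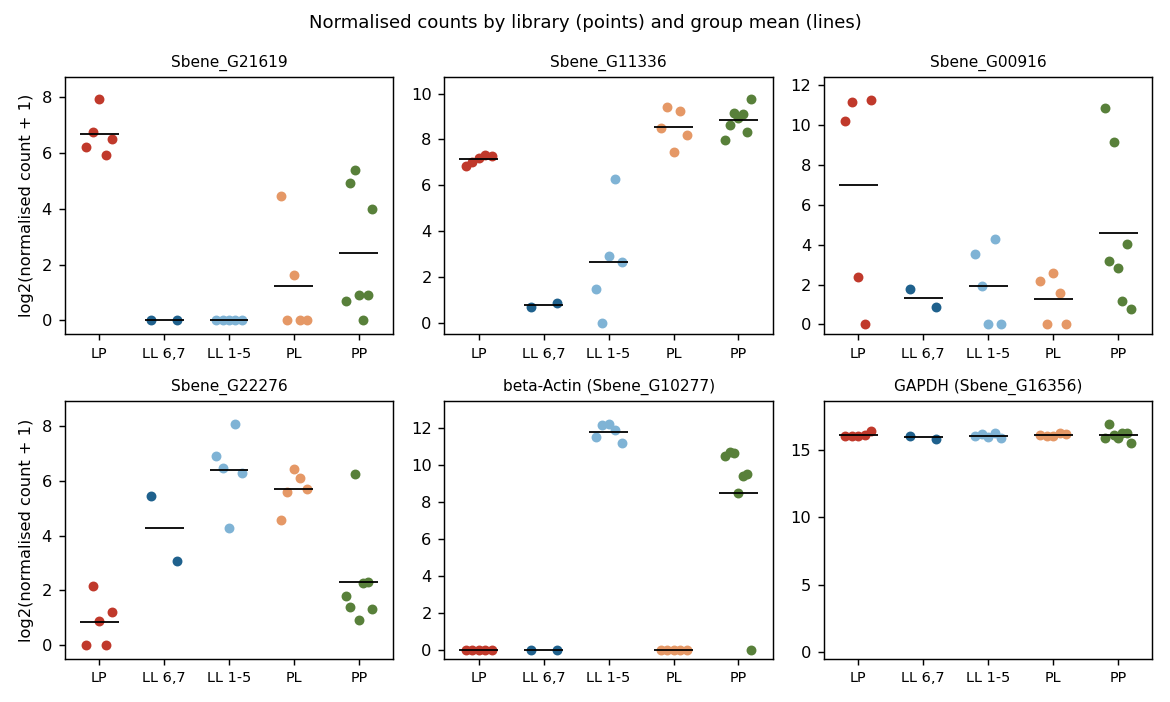
Normalised counts on a log2(normalised count + 1) axis for 6 genes, with a point for each library of LP, LL6 and LL7, LL1 to LL5, PL and PP, and a line at each group's mean. Sbene_G21619 and Sbene_G11336 are higher in all 5 LP libraries than in any LL library, Sbene_G00916 in 3 of them, Sbene_G22276 is lower in all 5, beta-Actin is at 0 in LP, LL6, LL7, PL and PP7, and GAPDH averages 71384 in LP and 65765 in LL.

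The study's text names 12 genes that encode transcription or chromatin factors or the receptors frizzled-5 and Notch. Frizzled proteins are receptors of Wnt ligands, Notch is a receptor for ligands on neighbouring cells, and polycomb proteins keep genes repressed through chromatin. The study named these genes for a difference between PP and LL on libraries that include the 7 LL ones used here. Of the 12, 10 were tested and 0 were called by edgeR, with 2 at an unadjusted p under 0.05, beside 1.16% called and 12.3% under 0.05 over all genes tested. A lower fitted level in LP was seen in 8 of the 10, beside 50.5% of all genes tested. The median log2 fold change was -0.87 over the 10, beside -0.01 over all genes tested. Those 8 had a higher mean in LL than in PP, and the 2 with a higher fitted level in LP had a lower one. The direction is therefore partly fixed by how the genes were chosen and is given as a description. By DESeq2's Wald test 1 was called, beside 2.61% of all genes it tested. In all 12 the LP and LL libraries overlapped, as in all but 1.58% of the genes tested.

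Among the factors, kruppel-like factor 15 (Sbene_G10036), a zinc-finger transcription factor, was the gene called by DESeq2 (adjusted p = 0.0297). It had 1.33, 2.32, 0.845, 0 and 0 normalised counts in LP, and 0, 16.2 and 83.9 (lowest, median and highest) in LL, with 45.3 in LL6 and 0 in LL7. LL7 alone was as low as the LP libraries, and edgeR gave a log2 fold change of -4.72 (SE 1.52) with an adjusted p of 0.177. The polycomb protein (Sbene_G10227) had 1105, 1676, 900, 826 and 1087 normalised counts in LP, and 1309, 1853 and 2356 (lowest, median and highest) in LL, with 2328 in LL6 and 1775 in LL7. LP2 alone lay inside the LL range, and edgeR gave a log2 fold change of -0.80 (SE 0.32, adjusted p = 0.286).

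The gene for a forkhead box protein (Sbene_G06980), a winged-helix transcription factor, had 9.21 to 17.7 normalised counts in LP and 12.4 to 105 in LL (edgeR log2 fold change -1.93, SE 1.05, adjusted p = 0.460). The paired-box protein (Sbene_G17489) had 0 to 49.3 in LP and 0 to 37.7 in LL (log2 fold change 0.72, adjusted p = 0.817 from edgeR; -0.18 without LP1). Visual system homeobox 2 (Sbene_G05917) had 0 to 5.07 in LP and 0 to 20.7 in LL and was not tested. All 3 genes overlapped between the groups.

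Of the receptors, frizzled-5 (Sbene_G05398) had 25.3, 29.0, 8.45, 0 and 14.5 normalised counts in LP, and 1.21, 12.6 and 95.9 (lowest, median and highest) in LL, with 1.21 in LL6 and 1.67 in LL7. Its fold change depended on the LL libraries used, at -0.96 (log2, adjusted p = 0.815 from edgeR) against all 7 and 3.31 (adjusted p = 0.669 from edgeR) against LL6 and LL7. The most abundant Notch copy (Sbene_G09677) did the same. It had 501, 800, 756, 412 and 661 normalised counts in LP, and 222, 360 and 3609 in LL (lowest, median and highest), with 354 in LL6 and 360 in LL7, and log2 fold changes of -0.93 against all 7 and 0.81 against LL6 and LL7 (adjusted p = 0.571 and 0.674 from edgeR).

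A second Notch copy, Sbene_G15020, split the LP libraries. LP1, LP2 and LP3 had 28.0, 13.9 and 18.6 normalised counts, all below the lowest LL library (45.7), and LP4 and LP5 had 238 and 187, of which LP4 was above the highest LL library (201). The log2 fold change was -0.46 (adjusted p = 0.848 from edgeR), and it was 0.09 with LP1 to LP3 summed into one library. The copy Sbene_G06517 had 0 to 10.1 in LP and 0 to 52.5 in LL, with 52.5 in LL6 and 21.7 in LL7 (log2 fold change -2.47, adjusted p = 0.484 from edgeR). The copy Sbene_G09676 had 2.30 to 42.2 in LP and 1.80 to 90.1 in LL (log2 fold change -0.62, and 0.08 against LL6 and LL7). The copy Sbene_G18208 had 0 to 45.6 in LP and 0 to 10.8 in LL (log2 fold change 2.07, adjusted p = 0.588 from edgeR), and Sbene_G13608 had 0 to 3.38 in LP and 0 to 30.5 in LL and was not tested.

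**Figure D5:**
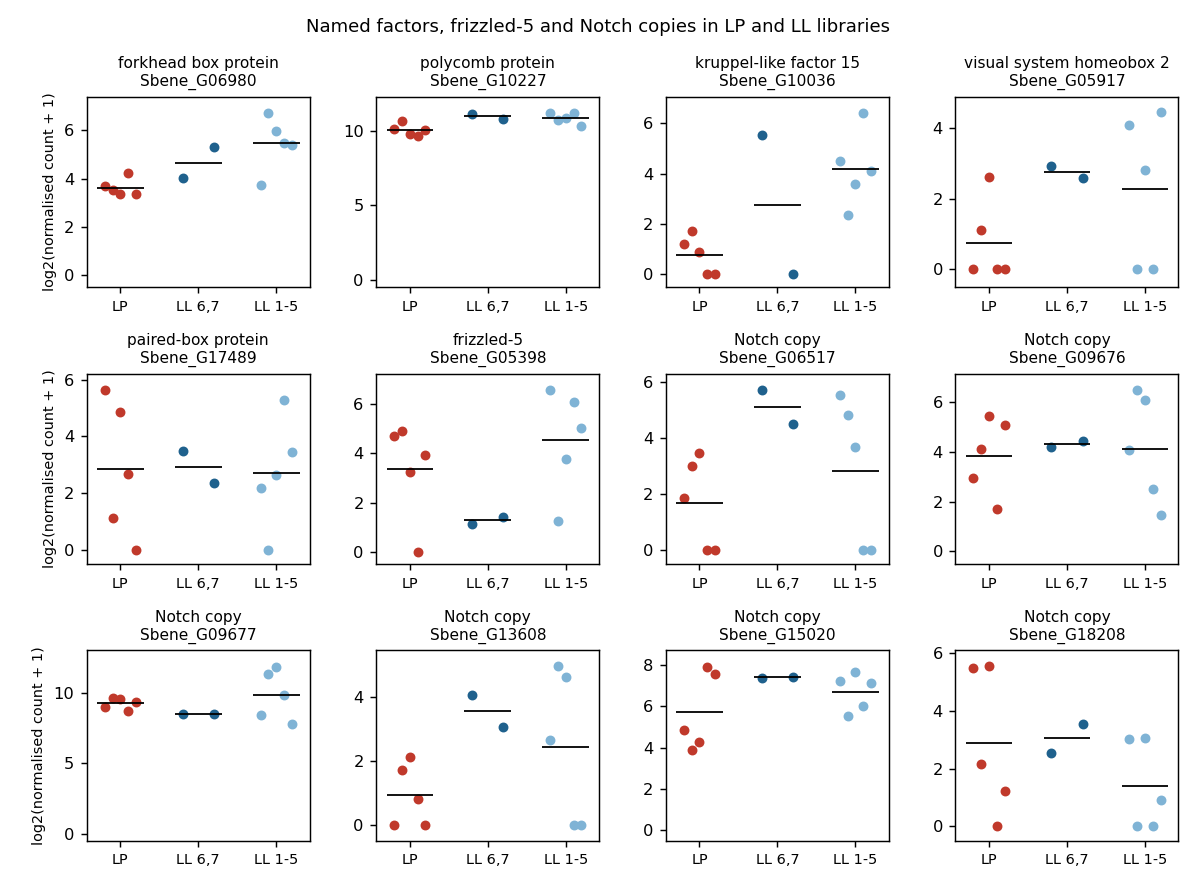
Normalised counts on a log2(normalised count + 1) axis of the 12 named factor and receptor genes in LP, in LL6 and LL7 and in LL1 to LL5, with a point for each library and a line at each group's mean. LP and LL overlap in all 12 panels, and the Notch copy Sbene_G15020 splits LP1 to LP3 from LP4 and LP5.

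Non-coding genes, marked as such in their identifiers, held a small share of the counts in both groups. Of 128 tested, 1 was called, lower in LP (0.781%), and 38 (29.7%) had an unadjusted p under 0.05, 34 of them lower, beside 12.3% of all genes tested. In 93 of the 128 the fitted level was lower in LP, beside 50.5% of all genes tested, and the median log2 fold change was -0.98, beside -0.01 over all genes tested. The filter kept these 128 of 5995 non-coding genes, and a gene could pass it through its LL libraries alone. The mean non-coding share was higher in LL (0.0811%) than in LP (0.0358%), PL (0.0204%) and PP (0.00995%). The lean to lower values in LP may therefore be partly set by the filter, and it is given as a description. DESeq2's Wald test called 30 of 2120 non-coding genes (1.42%, beside 2.61% of all genes), 27 of them lower in LP. Non-coding genes held 0.0446, 0.0955, 0.0184, 0.00973 and 0.0106% of the counts in LP1 to LP5, and 0.0260, 0.0720 and 0.151% (lowest, median and highest) in LL, with 0.0469% in LL6 and 0.151% in LL7. The LP mean was 0.0358 ± 0.0363% and the LL mean 0.0811 ± 0.0494% (SD, n = 5 and 7), which did not pass a two-sided exact permutation test (p = 0.106, where the smallest possible is 0.00253). Leaving out LP2 gave p = 0.0242 by the same exact permutation test. Against LL6 and LL7 alone the difference was -0.0630 percentage points (two-sided exact permutation p = 0.190, smallest possible 0.0952), so that design could not reach 0.05. The share was lowest in LP4 and LP5, and LP1 and LP2 lay inside the LL range.

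The reciprocal cross gave a parallel comparison, PL oocytes against PP oocytes, again with a shared maternal morph. It shared no library with LP against LL, though it shared the label, the normalisation and the estimate of the spread. PL had 244 called genes against PP (2.26% of 10782), 157 higher and 87 lower. The count was 176 without PL1, 459 without PL2, 87 without PL3, 76 without PL4 and 96 without PL5. It was 156 without PP1, 131 without PP2, 351 without PP3, 188 without PP4, 145 without PP5, 120 without PP6 and 552 without PP7. Of the called genes, 25 were shared by both comparisons, which is 20% of the 125 and 10.2% of the 244. In 19 of the 25 the direction was the same, with 18 lower and 1 higher in both F1 crosses, and in 6 it was opposite. Of the 18 lower in both, 11 had no count in any of the 13 labelled libraries, Sbene_G10774 and the beta-Actin among them. In those 11 the absence was shared by the labelled parental libraries LL6, LL7 and PP7, so it followed the label and not the F1 cross alone. The difference between the effects of the 2 crosses was tested in the same fit, a test chosen after the data were seen, and 314 genes were called for it (2.91%), 62 of them among the 125. This difference holds the change of LP over LL that selected the 125, so the 62 are partly fixed by that selection. It can also be called where LP and PL are alike and LL and PP are not. Sbene_G25841 was so called, with means of 232 normalised counts in LP, 204 in PL, 191 in LL and 1.21 in PP. Sbene_G21619 was one of the 62, higher in LP than in LL but with a fitted log2 fold change of -1.42 in PL over PP (adjusted p of the difference 0.0191 from edgeR). Sbene_G22276 was another, at -6.21 in LP over LL and 2.08 in PL over PP (adjusted p of the difference 0.0128 from edgeR).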

How the data were processed

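RNA of pooled oocytes was measured by stranded RNA sequencing, 1 library a female. The authors deposited whole-number counts per gene, and the labels' processing notes name Trim Galore, HISAT2 and HTSeq. The study's methods add removal of ribosomal reads and alignment to the planktotrophic reference. The RUVg step they describe for F1 comparisons was not repeated. Each file held 26216 genes, and 5 tally lines, 62.9 to 87.1% of tallied reads, were dropped.

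Counts were tested with edgeR 4.0.16 (R 4.3.3; TMM, filterByExpr, quasi-likelihood F-test, all 24 libraries as 4 group means), with Benjamini-Hochberg adjusted p under 0.1 and fold change over 1.5. Standard errors were derived from the F statistic. Normalised counts are counts divided by median-of-ratios size factors (DESeq2 1.42.0) over the 24 libraries. A group with no count was set at a floor of 3 counts per library. The steps were run on simulated counts with 200 genes changed 3-fold and no effect of the label. Those runs therefore cannot show how the label bears on the calls. Alternatives were DESeq2, other filters and scalings, the label as covariate, 1 unwanted factor, a replicate block, LP1 to LP3 summed, an adjusted p of 0.05 and each library left out. No 2 libraries of a group agreed within sampling noise (the lowest chi-square per gene was 84.2).

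Members and lists were chosen with earlier results of these data known. Named genes were those the study's text or the series description names, the largest fitted changes each way among called genes without overlap, and the largest fitted each way with LL6 and LL7 inside the LP range; 1 gene with counts in both groups was added after its values were seen. The files pair identifiers with no names, so at most 2 unnamed identifiers each way are printed. Names that appear in pictures of the study's tables were not used.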

Additional observations from a re-analysis of the deposited data

Results flagged for a closer look

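In 8 of 49 groups of libraries checked among the named and described genes, the highest or lowest library lay far from the others. Chance flags about 1 in 20 groups of normally spread values, a rate that need not hold for the groups near 0 here. LP3 stood apart for Sbene_G21619 (240.7 normalised counts), for visual system homeobox 2 (5.07) and for the low gene with the second largest fitted fall (0.845). LL4 stood apart for Sbene_G11336 (77.3), for Sbene_G22276 (272) and for the paired-box protein (37.7). LL7 stood apart for Sbene_G25841 (502). LL6 was the 1 LL library with a count (0.604 normalised) in the gene that rose in LP1 to LP3 with LL6 and LL7 inside the LP range.

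For 9 named or described genes the effect of LP over LL differed from that of PL over PP (adjusted p under 0.1 from edgeR, a test chosen after the data were seen). The difference of the 2 log2 fold changes was 15.19 for Sbene_G00916, 11.42 for Sbene_G21619, 9.61 for the gene with the second largest fitted rise, 8.87 for the gene that rose in LP1 to LP3 and 7.77 for the gene with the 64.4-fold ratio of means. It was -8.29 for Sbene_G22276, -7.61 for the gene with the second largest fitted fall, -7.19 for the Notch copy Sbene_G06517 and -7.10 for Sbene_G25841. Most of these genes had groups at or near 0, so the size of the difference depends on the prior count. In Sbene_G25841 the LP and PL means were alike (232 and 204 normalised counts), whereas those of LL and PP were not (191 and 1.21).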

How the results depend on the processing

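The 125 genes called in LP against LL (72 higher, 53 lower) became 510 (229 and 281) with DESeq2, 80 (47 and 33) without the filter, 51 (30 and 21) with only LP and LL libraries, 5 (1 and 4) with the label as covariate, 2 (2 and 0) with LP1 to LP3 summed and 24 (15 and 9) at an adjusted p of 0.05. Alternatives chosen after seeing the data gave 681 (515 and 166) against LL1 to LL5 alone and 194 (97 lower) for DESeq2 with the label as covariate. Leaving out 1 library gave 37 to 196 (12 to 69 lower). With the replicate number as a block, 417 were called (311 higher, 106 lower); the numbers do not pair the females, since same-numbered libraries had correlations of -0.09 to 0.12 and no LP library correlated best with its own number.

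LP against LL6 and LL7 gave 247 (112 lower) with DESeq2, 7 (4 lower) with 7 libraries, 9 (6 lower) at an adjusted p of 0.05, and 8 to 13 (4 to 9 lower) without 1 library. LL6 and LL7 against LL1 to LL5 gave 519 (240 lower) with DESeq2, 127 (108 and 19) at an adjusted p of 0.05, 280 (123 and 157) with only the LL libraries, and 107 to 185 (21 to 26 lower) without 1 library. Median-of-ratios scaling gave 16 (11 lower) in the first of these comparisons and 190 (29 lower) in the second. Dropping the filter gave 22 (16 lower) and 199 (31 lower). Splitting all 24 libraries by label gave 14 (10 lower) in the first. PL against PP gave 807 (463 and 344) with DESeq2 and 76 to 552 (15 to 239 lower) without 1 library. It gave 240 (86 lower) with median-of-ratios scaling and 203 (62 lower) without the filter. The non-coding difference was -0.0603 to -0.0338 percentage points without 1 library (exact permutation p = 0.0242 to 0.200).

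Sign changes, as log2 fold changes, were in frizzled-5 Sbene_G05398 (3.32 with the label as covariate, 3.33 in DESeq2 with it, 3.31 against LL6 and LL7), the Notch copies Sbene_G09677 (0.92, 0.93 and 0.81 in the same order), Sbene_G09676 (0.076 against LL6 and LL7) and Sbene_G15020 (0.093 with LP1 to LP3 summed), Sbene_G25841 (-0.18, -0.19 and -0.52), Sbene_G17489 (-0.18 without LP1, with 1.54 as the highest value without 1 library) and Sbene_G10774 (0.37 in DESeq2 with the label). The value of Sbene_G10774 is no measured change, since no labelled library had a count of it. The causes were not tested. That LL has 2 labelled libraries limits the comparison within the label.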
